A study of Mus musculus with 13 samples.

Results

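The RNA of 10 enzymes that act after squalene in cholesterol synthesis was followed in bone marrow-derived macrophages (BMDMs) stimulated with lipopolysaccharide (LPS). The 10 genes were *Sqle*, *Lss*, *Cyp51*, *Tm7sf2*, *Msmo1*, *Nsdhl*, *Hsd17b7*, *Ebp*, *Sc5d* and *Dhcr7*. They were chosen by their place in the pathway and not by a measured value, but with earlier results of these data known. They are 10 of 24445 genes in the table, and all 10 were among the 11904 genes with enough counts to be tested. After 3 h LPS, all 10 were higher in macrophages lacking ATP citrate lyase (*Acly*) than in control macrophages by the adjusted p-value. So were 1012 of the 11904 tested genes. Of the 10, 9 were also past the fold threshold, where 1.41% of tested genes were. After 24 h LPS, 8 of the 10 were lower in the cells lacking *Acly* by the adjusted p-value, where 5.57% of tested genes were. Of these 8, 1 was past the fold threshold, where 0.479% of tested genes were.

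BMDMs are macrophages grown in culture from bone marrow cells, here over several days in medium conditioned by L929 fibroblasts, and all came from female mice. LPS is a component of the outer membrane of Gram-negative bacteria that activates macrophages. Control macrophages, WT in the labels, carried floxed *Acly* alleles without Cre. Macrophages of AclyM-KO mice, KO in the labels, carried the same floxed alleles together with Cre expressed from *Lyz2*, a gene of myeloid cells, so that deletion is not limited to macrophages. There were 3 control and 3 AclyM-KO libraries after 3 h LPS, and 4 control and 3 AclyM-KO libraries after 24 h LPS. The age of the mice was not given in the sources used here, and unstimulated cells were not analysed here. Nothing in the labels says that replicates of a group came from separate mice, so the p-values measure the spread between these libraries, which may be technical.

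Cholesterol is built from acetyl-CoA, which ACLY makes in the cytosol from citrate. The mevalonate pathway first joins acetyl-CoA units into squalene. The enzymes described here work in the endoplasmic reticulum, where they oxidize and cyclize squalene to lanosterol, and then remove methyl groups and move or reduce double bonds until cholesterol is formed. Cells adjust transcription of the whole pathway to their sterol content through sterol regulatory element-binding proteins (SREBPs), which act on promoters together with general factors such as NF-Y and Sp1. Activated macrophages are known to change this pathway, whose intermediates also act as signals.

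The libraries held 21274102 to 59577343 counts, except control 24 h replicate 1, which held 34467, so that 1 count in it stood for 22.4 CPM (a count scaled by the size of its library). That library was left out of the fit, which therefore holds 12 libraries and 3 per group, and values with it are given where they bear on a result. Levels are CPM after TMM scaling of the libraries. *Acly* itself was lower in AclyM-KO libraries at both times: 37.7, 46.2 and 41.5 CPM against 105, 107 and 106 in control at 3 h, and 30.1, 30.5 and 29.1 CPM against 113, 109 and 107 at 24 h. The log2 fold change was -1.34 ± 0.06 (SE) at 3 h (edgeR quasi-likelihood test with Benjamini-Hochberg adjustment, adjusted p = 6.41e-16) and -1.88 ± 0.06 at 24 h (edgeR, adjusted p = 4.81e-20). These counts cover the whole transcript and not only the floxed exon. Marker sums were taken as CPM of the total counts without TMM scaling, so they are not on the scale of the other levels. All 8 macrophage markers were tested. Their summed level was 8531 to 8619 CPM in control and 5912 to 6574 in AclyM-KO at 3 h, and 6716 to 7003 and 4963 to 5043 at 24 h. No macrophage marker was at 0. The list includes *Lyz2*, the site of Cre, whose log2 fold change was -0.97 at 3 h and -1.40 at 24 h. Summed neutrophil markers reached at most 12.5 CPM, with 3 of 8 tested, and the B cell, T cell, dendritic cell and fibroblast lists at most 0.244, 9.21, 2.49 and 1.38 CPM, with 0 of 4, 1 of 4, 1 of 4 and 1 of 5 markers tested. In these bulk samples, fewer cells of a type and less RNA per cell cannot be told apart, and the part of other cells in the results was not tested.

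To show what the start sites of these genes share, 6 promoter windows are printed, from 250 bases before to 50 bases after an annotated start (RefSeq, GRCm38.p6, the assembly that mm10 names). They belong to the 4 members whose genotype effect differed most between the 2 times (*Lss*, *Hsd17b7*, *Dhcr7* and *Cyp51*), to *Msmo1*, the member with the highest level, and to *Ebp*, the member with the smallest difference. Capitals mark CCAAT, the letters of the NF-Y box, and GGGCGG, the letters of the Sp1 or GC box, each on either strand, so that ATTGG and CCGCCC are also in capitals.

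Lss: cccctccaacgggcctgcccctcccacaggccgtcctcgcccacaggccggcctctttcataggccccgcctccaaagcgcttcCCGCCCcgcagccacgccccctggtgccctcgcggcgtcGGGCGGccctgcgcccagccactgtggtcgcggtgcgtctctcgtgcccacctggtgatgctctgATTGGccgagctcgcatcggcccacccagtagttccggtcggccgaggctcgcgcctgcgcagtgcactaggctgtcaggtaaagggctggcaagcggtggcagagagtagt

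Hsd17b7: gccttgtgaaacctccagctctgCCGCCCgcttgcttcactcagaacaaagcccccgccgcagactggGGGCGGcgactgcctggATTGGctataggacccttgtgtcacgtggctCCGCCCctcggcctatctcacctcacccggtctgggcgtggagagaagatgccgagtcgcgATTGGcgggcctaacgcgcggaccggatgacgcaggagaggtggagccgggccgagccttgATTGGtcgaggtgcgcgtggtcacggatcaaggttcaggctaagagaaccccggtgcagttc

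Dhcr7: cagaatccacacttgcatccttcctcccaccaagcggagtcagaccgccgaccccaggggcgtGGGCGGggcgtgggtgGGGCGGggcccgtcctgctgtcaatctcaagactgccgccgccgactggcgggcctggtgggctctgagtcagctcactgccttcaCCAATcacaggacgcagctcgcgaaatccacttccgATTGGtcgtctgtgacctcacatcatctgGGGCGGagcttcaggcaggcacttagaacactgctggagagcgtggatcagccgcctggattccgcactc

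Cyp51: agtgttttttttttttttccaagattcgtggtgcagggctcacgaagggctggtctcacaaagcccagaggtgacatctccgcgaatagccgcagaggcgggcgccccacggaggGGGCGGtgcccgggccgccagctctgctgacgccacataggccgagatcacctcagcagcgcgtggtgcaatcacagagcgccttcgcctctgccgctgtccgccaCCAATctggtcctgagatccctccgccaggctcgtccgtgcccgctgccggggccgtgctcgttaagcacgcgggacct

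Msmo1: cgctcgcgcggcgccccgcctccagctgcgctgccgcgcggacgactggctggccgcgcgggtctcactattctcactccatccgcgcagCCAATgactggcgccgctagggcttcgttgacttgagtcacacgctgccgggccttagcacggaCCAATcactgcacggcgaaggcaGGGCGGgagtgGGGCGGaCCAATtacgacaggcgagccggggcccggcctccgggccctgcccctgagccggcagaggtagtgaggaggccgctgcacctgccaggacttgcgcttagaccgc

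Ebp: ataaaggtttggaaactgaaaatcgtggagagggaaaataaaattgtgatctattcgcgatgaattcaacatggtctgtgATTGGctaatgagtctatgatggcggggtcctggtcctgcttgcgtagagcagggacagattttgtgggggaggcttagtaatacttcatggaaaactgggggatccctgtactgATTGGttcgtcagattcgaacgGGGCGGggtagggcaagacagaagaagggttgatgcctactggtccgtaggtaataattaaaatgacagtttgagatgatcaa

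The *Lss* window is chr10:76531355-76531654 on the plus strand, *Hsd17b7* chr1:169969156-169969455 on the minus strand, *Dhcr7* chr7:143829964-143830263 on the plus strand, *Cyp51* chr5:4104648-4104947 on the minus strand, *Msmo1* chr8:64733529-64733828 on the minus strand and *Ebp* chrX:8193463-8193762 on the minus strand. The *Dhcr7* window is 1 of 3 for that gene, and the only one of them with CCAAT. It lies inside the gene, whose annotated start is at 143823145. Of the *Dhcr7* windows not printed, the one at 143822917 held GGGCGG without CCAAT. The one at 143823149 held CACGTG and neither of the marked boxes. The counts below take a gene as having a motif if any of its windows has it. A window was in the table for 9 of the 10 members, all but *Sqle*. CCAAT was present on either strand in a window of 9 of 9 members, against 41.1% of 27025 genes and 43.1% of the 9543 tested genes with a window. GGGCGG was also present in 9 of 9 members, against 38.2% of all genes and 67.9% of tested genes, and both stood in the same window in 9 of 9 members, against 14.5% and 27.2%. In the printed windows the CCAAT nearest to the start lay 12 bases before it in *Hsd17b7*, 29 in *Cyp51*, 49 in *Dhcr7*, 55 in *Msmo1* and *Ebp* and 62 in *Lss*. The E-box letters CACGTG, searched on both strands, were in a window of 3 members, *Hsd17b7*, *Dhcr7* and *Sc5d*, against 8.09% of all genes and 12% of tested genes. TCACNCCAC, a form of the sterol regulatory element in which N is any base, was in 0 of 9 member windows and in 1.44% of all genes, and says only that these letters are not in these windows. In the printed windows no match overlapped another, and a match is a description of the sequence, not evidence of binding.

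The first comparison asked how loss of *Acly* changed the enzymes 3 h after LPS. The first 2 enzymes of the series rose. *Sqle* (chromosome 15, 59315077 to 59331192, plus strand, mm10) encodes squalene epoxidase, the oxygen-requiring first step and a control point of the pathway. Its level was 32.4, 34.1 and 32.3 CPM in control and 67.2, 83.6 and 71.3 CPM in AclyM-KO macrophages. The groups did not overlap, and the rise was 2.25-fold (log2 1.17 ± 0.09 SE, edgeR, adjusted p = 1.31e-09). *Lss* (chromosome 10, 76531588 to 76557138, plus strand) encodes lanosterol synthase, which closes the sterol rings. It stood at 6.70, 7.53 and 6.63 CPM in control and 18.2, 30.9 and 24.4 CPM in AclyM-KO. This was the largest rise of the 10, 3.53-fold (log2 1.82 ± 0.16 SE, edgeR, adjusted p = 5.19e-06), and also the one with the widest spread among AclyM-KO libraries.

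The next enzymes strip lanosterol of its methyl groups. *Cyp51* (chromosome 5, 4081145 to 4104746, minus strand), the cytochrome P450 that demethylates lanosterol, rose from 41.6, 42.9 and 40.0 CPM to 92.0, 116 and 106 CPM, 2.53-fold (log2 1.34 ± 0.07 SE, edgeR, adjusted p = 1.13e-12). *Tm7sf2* (chromosome 19, 6062821 to 6068373, minus strand), a sterol reductase that acts on the product of CYP51, rose from 5.31, 4.68 and 3.39 CPM to 10.2, 11.2 and 11.5 CPM, 2.46-fold (log2 1.30 ± 0.14 SE, edgeR, adjusted p = 1.43e-07). In neither gene did the 2 groups overlap. Both genes overlap another in the annotation. *Vps51*, whose exons overlap *Tm7sf2* on the same strand, had a log2 fold change of 0.21 (edgeR, adjusted p = 0.120), and *Akap9*, which overlaps *Cyp51* on the opposite strand, one of -0.11 (edgeR, adjusted p = 0.482). An antisense gene overlaps *Lss*, and the strand setting of the counting is not given in the sources used here, so counts of such pairs may be shared.

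*Msmo1*, *Nsdhl* and *Hsd17b7* work as a unit on the remaining methyl pair. *Msmo1* (chromosome 8, 64718139 to 64733792, minus strand), the methyl sterol oxidase, had a mean of 65.2 ± 3.50 CPM (SD, n = 3) in control and 115 ± 10.7 in AclyM-KO macrophages, a rise of 1.76-fold (log2 0.82 ± 0.07 SE, edgeR, adjusted p = 2.14e-09). *Nsdhl* (chromosome X, 72918557 to 72958514, plus strand), the sterol dehydrogenase of this unit, rose from 10.6, 9.78 and 10.5 CPM to 16.4, 24.7 and 22.7 CPM, 2.08-fold (log2 1.06 ± 0.11 SE, edgeR, adjusted p = 3.81e-07). *Hsd17b7* (chromosome 1, 169949535 to 169969241, minus strand), its ketoreductase, rose from 7.94, 7.35 and 7.38 CPM to 19.6, 25.5 and 22.3 CPM, 2.98-fold (log2 1.58 ± 0.10 SE, edgeR, adjusted p = 3.65e-12). Thus all 3 members of the demethylation unit rose, and no AclyM-KO library was as low as a control library in any of them.

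The last 3 enzymes rearrange the double bonds of the ring. *Ebp* (chromosome X, 8185329 to 8193512, minus strand), the sterol isomerase also known as emopamil-binding protein, was the only one of the 10 under the fold threshold, with 17.6, 20.03 and 17.2 CPM in control and 22.1, 22.8 and 23.4 CPM in AclyM-KO. The groups did not overlap, but the log2 fold change was 0.32 ± 0.08 (SE, edgeR, adjusted p = 0.00708). *Sc5d* (chromosome 9, 42251595 to 42264256, minus strand), which introduces a double bond into the ring, rose from 31.5 ± 2.59 to 63.4 ± 5.42 CPM (SD, n = 3), 2.01-fold (log2 1.01 ± 0.08 SE, edgeR, adjusted p = 8.44e-11). *Dhcr7* (chromosome 7, 143823145 to 143848410, plus strand), the reductase of dehydrocholesterol, rose from 7.15, 5.29 and 6.28 CPM to 14.7, 17.7 and 15.6 CPM, 2.58-fold (log2 1.37 ± 0.12 SE, edgeR, adjusted p = 1.31e-09).

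A gene was called changed where its adjusted p-value was under 0.05 and its log2 fold change over 0.75 or under -0.75. At 3 h, 9 of 10 members were called higher, where 1.41% of all tested genes were, and the median log2 fold change of the 10 was 1.23 against -0.01 over all tested genes. All 10 had every AclyM-KO library above every control library, as 15.3% of tested genes did. The 9 calls at 3 h held in each of the fits that left out 1 library. Those without a 24 h library could change these calls only through the shared filter, scaling and spread.

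**Figure D1:**
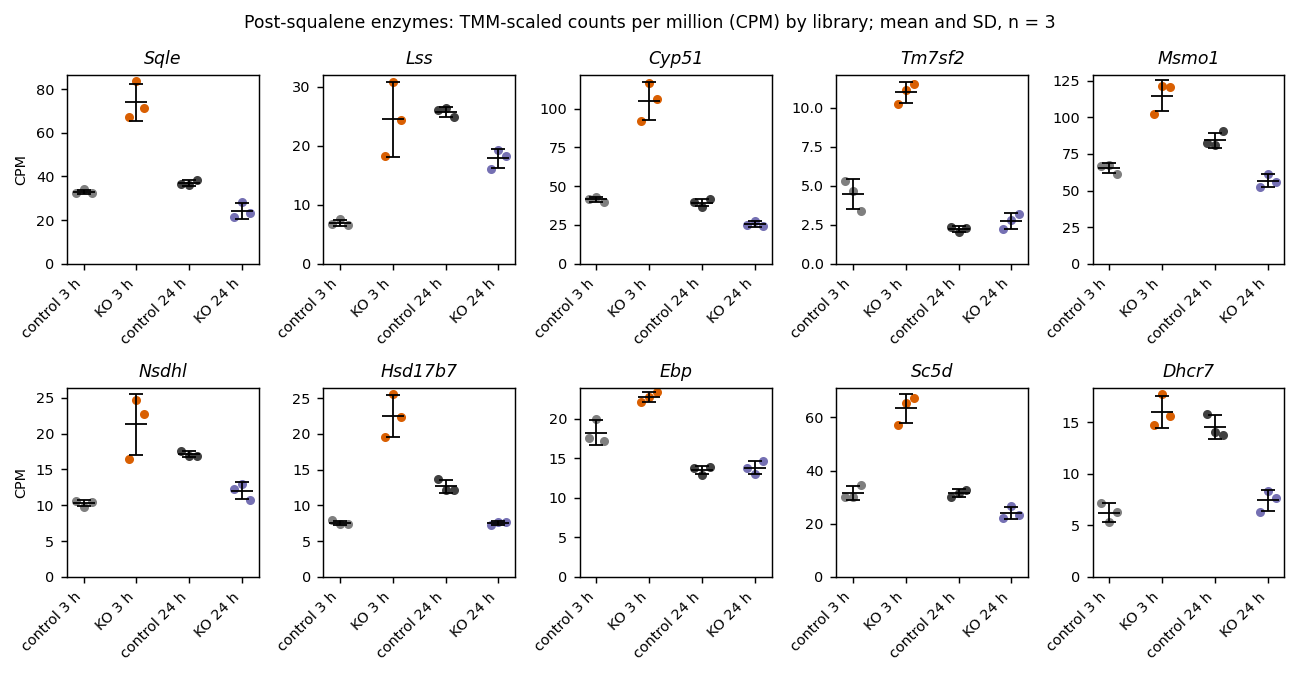
Level of each of the 10 enzymes in each library, in TMM-scaled CPM on an axis from 0, for control and AclyM-KO (KO) macrophages after 3 h and 24 h LPS, with 1 point per library and lines for the mean and SD of 3 libraries. In every panel the KO 3 h points lie above the control 3 h points, and in 8 panels the KO 24 h points lie below the control 24 h points, *Tm7sf2* and *Ebp* being the exceptions.

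The second comparison was of the same genotypes after 24 h LPS. *Dhcr7* was the single member called lower, with 15.8, 14.1 and 13.7 CPM in control and 6.27, 8.32 and 7.68 CPM in AclyM-KO. That is 1.95-fold lower (log2 -0.96 ± 0.11 SE, edgeR, adjusted p = 1.84e-07), and the groups lay far apart. *Hsd17b7* was next, with 13.7, 12.1 and 12.2 CPM in control and 7.25, 7.72 and 7.75 CPM in AclyM-KO, and a log2 fold change of -0.74 ± 0.10 (SE, edgeR, adjusted p = 4.14e-06) that ended just inside the threshold. It was called when AclyM-KO 24 h replicate 2 (-0.75) or 3 (-0.76), or control 24 h replicate 3 (-0.76) or 4 (-0.77), was left out, and in the fit without a filter on low counts (-0.76).

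The enzymes at the head of the series had smaller differences at 24 h. *Sqle* stood at 36.6, 36.1 and 38.6 CPM in control and 21.2, 28.1 and 23.2 CPM in AclyM-KO, a log2 fold change of -0.62 ± 0.09 (SE, edgeR, adjusted p = 2.10e-05). *Cyp51* stood at 39.7, 36.8 and 41.8 CPM against 24.8, 27.7 and 24.0 CPM, a log2 fold change of -0.64 ± 0.08 (SE, edgeR, adjusted p = 1.43e-06). *Lss* had 26.1, 26.3 and 24.8 CPM in control and 16.1, 19.3 and 18.2 CPM in AclyM-KO, a log2 fold change of -0.52 ± 0.14 (SE, edgeR, adjusted p = 0.0196). In all 3 the genotypes did not overlap, although each difference was smaller than the threshold of 0.75. For *Lss* the adjusted p rose to 0.0819 without AclyM-KO 24 h replicate 1, 0.0560 without AclyM-KO 24 h replicate 3, 0.0618 without control 24 h replicate 2 and 0.0580 without control 24 h replicate 3 (edgeR).

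The remaining members of the methyl-removing unit and *Sc5d* were also lower by the adjusted p-value and not called. The log2 fold change at 24 h was -0.58 ± 0.07 (SE) for *Msmo1* (edgeR, adjusted p = 8.13e-07), -0.51 ± 0.11 for *Nsdhl* (edgeR, adjusted p = 0.00156) and -0.40 ± 0.08 for *Sc5d* (edgeR, adjusted p = 5.21e-04). *Tm7sf2* and *Ebp* differed from the rest, since their genotypes overlapped at 24 h. *Tm7sf2* had 2.38, 2.05 and 2.26 CPM in control and 2.21, 2.81 and 3.19 CPM in AclyM-KO (log2 0.29 ± 0.17 SE, edgeR, adjusted p = 0.297). *Ebp* had 13.8, 12.9 and 13.9 CPM in control and 13.8, 13.1 and 14.7 CPM in AclyM-KO (log2 0.03 ± 0.08 SE, edgeR, adjusted p = 0.858).

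Of the 10 members, 1 was called lower at 24 h, where 0.479% of tested genes were, and 8 were lower by the adjusted p-value alone, where 5.57% of tested genes were. In the same 8 genes no AclyM-KO library reached the lowest control library, as in 14.9% of tested genes. The median log2 fold change of the 10 was -0.55 against 0.01 over all tested genes. Control 24 h replicate 1 held 0 counts of *Lss*, *Tm7sf2*, *Nsdhl*, *Hsd17b7* and *Dhcr7*, 1 count each of *Cyp51* and *Ebp*, 2 each of *Sqle* and *Msmo1* and 4 of *Sc5d*. With all 13 libraries in the fit, *Dhcr7* was at -0.96, *Hsd17b7* at -0.74 and *Sc5d* at -0.40. A library of 34467 counts has little weight in such a fit, so these values could hardly move.

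**Figure D2:**
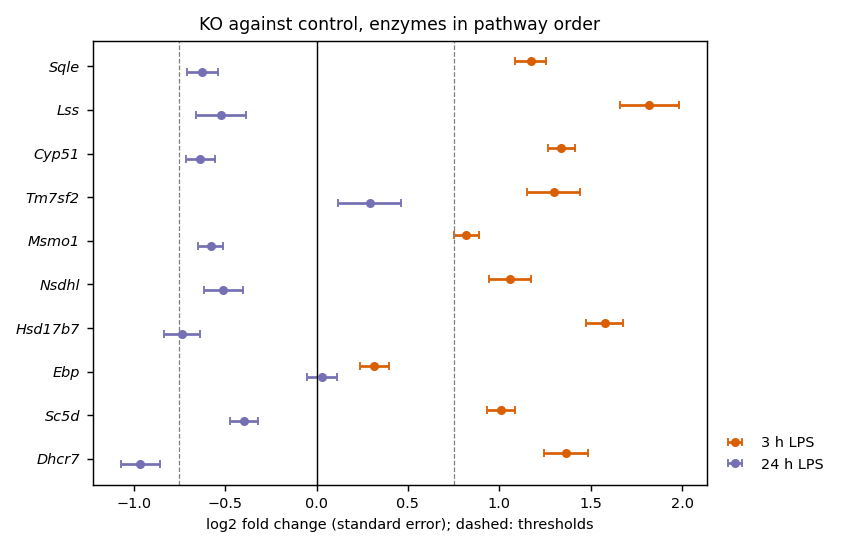
Log2 fold change of AclyM-KO (KO) against control macrophages for the 10 enzymes in pathway order, with bars for the standard error from edgeR, at 3 h and 24 h LPS, and dashed lines at the fold threshold of 0.75 in each direction. All 3 h points are to the right of 0 and 9 lie beyond the threshold, while 8 of the 24 h points are to the left of 0 and that of *Dhcr7* (-0.96) lies beyond the threshold.

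The difference between the genotype effects at the 2 times was tested directly, as an interaction called on the adjusted p-value alone. It was lower at 24 h than at 3 h for 9 of 10 members, where 4.66% of tested genes were, with a median of -1.68 on the log2 scale. *Lss* had the largest value, -2.34 ± 0.21 (SE, edgeR, adjusted p = 1.13e-05), followed by *Dhcr7* at -2.33 ± 0.16 (edgeR, adjusted p = 1.14e-11) and *Hsd17b7* at -2.31 ± 0.14 (edgeR, adjusted p = 8.55e-13). These 3 values were within their standard errors of each other. *Cyp51* followed at -1.97 ± 0.11 (edgeR, adjusted p = 4.78e-13), *Sqle* at -1.79 ± 0.12 (edgeR, adjusted p = 3.93e-10) and *Nsdhl* at -1.57 ± 0.16 (edgeR, adjusted p = 2.03e-07). *Sc5d* at -1.41 ± 0.11 (edgeR, adjusted p = 1.22e-10), *Msmo1* at -1.40 ± 0.10 (edgeR, adjusted p = 5.46e-11) and *Tm7sf2* at -1.01 ± 0.23 (edgeR, adjusted p = 0.00387) completed the 9. For *Ebp* the value was -0.29 ± 0.12 (edgeR, adjusted p = 0.118), which did not pass.

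The course from 3 h to 24 h was then compared within each genotype. In control macrophages the members did not move together. *Lss* rose 3.69-fold (log2 1.88 ± 0.16 SE, edgeR, adjusted p = 6.29e-08) and *Dhcr7* 2.32-fold (log2 1.21 ± 0.12 SE, edgeR, adjusted p = 7.64e-11), whereas *Tm7sf2* fell (log2 -0.996 ± 0.17 SE, edgeR, adjusted p = 3.72e-06). *Nsdhl* and *Hsd17b7* both had a log2 fold change of 0.74, just inside the threshold (edgeR, adjusted p = 2.07e-06 and 1.72e-07). *Nsdhl* was called without control 24 h replicate 4 (0.75) or control 3 h replicate 1 (0.77) or 3 (0.76), and *Hsd17b7* without control 24 h replicate 3 (0.77) or 4 (0.78) or control 3 h replicate 1 (0.79). *Msmo1* was at 0.38 and *Ebp* at -0.43, past the adjusted p-value but not the fold. *Sqle* (0.18, edgeR, adjusted p = 0.0669), *Cyp51* (-0.07, edgeR, adjusted p = 0.416) and *Sc5d* (0.01, edgeR, adjusted p = 0.935) passed neither. The p of *Sqle* ranged from 0.00817 to 0.313 over the alternative fits.

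In AclyM-KO macrophages all 10 were lower at 24 h than at 3 h by the adjusted p-value, as 36.3% of tested genes were, and 8 were called. *Cyp51* fell 4.12-fold (log2 -2.04 ± 0.08 SE, edgeR, adjusted p = 2.04e-19), *Tm7sf2* 4.01-fold (log2 -2.004 ± 0.15 SE, edgeR, adjusted p = 2.94e-13) and *Sqle* 3.07-fold (log2 -1.62 ± 0.09 SE, edgeR, adjusted p = 2.12e-14). The other called members were *Hsd17b7* (-1.57), *Sc5d* (-1.40), *Dhcr7* (-1.11), *Msmo1* (-1.02) and *Nsdhl* (-0.83). *Ebp* at -0.72 and *Lss* at -0.46 were within the fold threshold, and *Lss* was the member whose 3 h and 24 h AclyM-KO libraries overlapped. Without AclyM-KO 3 h replicate 2 *Nsdhl* was at -0.73 and no longer called, and without AclyM-KO 24 h replicate 3 *Ebp* was at -0.76 and called.

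In control, 2 of 10 members were called higher and 1 lower with time, where 20.9% and 19.5% of tested genes were, so that these counts lie near the background. In AclyM-KO, 8 of 10 were called lower, where 20% of tested genes were. The median log2 change with time of the 10 was 0.28 in control and -1.26 in AclyM-KO. Both comparisons with time share their libraries with the comparisons of genotype.

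**Figure D3:**
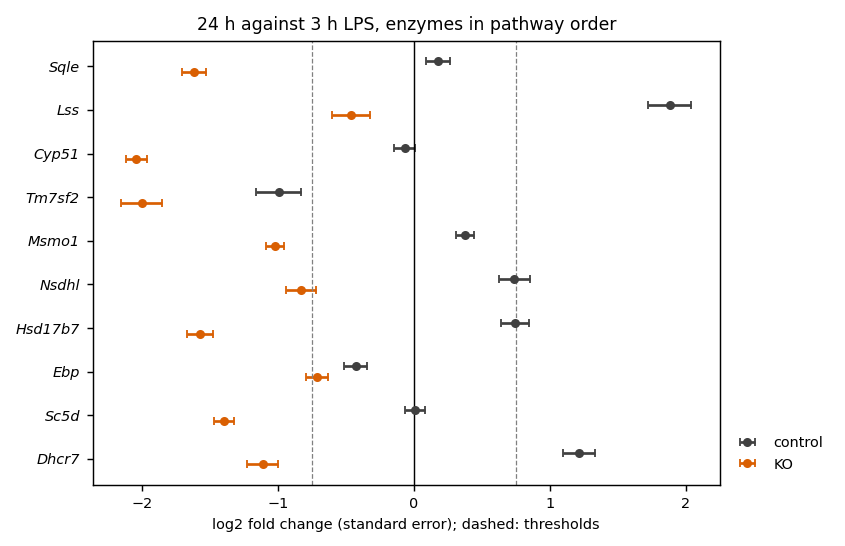
Log2 fold change of 24 h against 3 h LPS for the 10 enzymes in pathway order, in control and AclyM-KO (KO) macrophages, with bars for the standard error from edgeR and dashed lines at the fold threshold of 0.75 in each direction. The control points spread from -0.996 (*Tm7sf2*) to 1.88 (*Lss*), while all KO points lie to the left of 0.

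Set side by side by their course in control, *Lss*, *Dhcr7*, *Nsdhl*, *Hsd17b7* and *Msmo1* were the 5 with higher control means at 24 h by the adjusted p-value alone, where 38.9% of tested genes were, a share near that of the members. *Lss* had 6.96 ± 0.50 CPM (SD, n = 3) in control at 3 h, 24.5 ± 6.32 in AclyM-KO at 3 h, 25.8 ± 0.83 in control at 24 h and 17.9 ± 1.60 in AclyM-KO at 24 h. *Dhcr7* had 6.24 ± 0.93, 16.01 ± 1.54, 14.5 ± 1.12 and 7.42 ± 1.05 CPM in the same order. Among these 5, the AclyM-KO libraries at 3 h and the control libraries at 24 h overlapped in range for *Lss*, *Dhcr7* and *Nsdhl*, and did not for *Hsd17b7* and *Msmo1*. In 7 of the 10 members, *Sqle*, *Cyp51*, *Tm7sf2*, *Msmo1*, *Hsd17b7*, *Ebp* and *Sc5d*, every AclyM-KO library at 3 h lay above all libraries of the other groups, as in 7.65% of tested genes. *Cyp51*, for example, had 41.5 ± 1.44 CPM in control at 3 h, 105 ± 12.3 in AclyM-KO at 3 h, 39.4 ± 2.53 in control at 24 h and 25.5 ± 1.92 in AclyM-KO at 24 h. *Tm7sf2* and *Ebp* were lower at 24 h than at 3 h in both genotypes by the adjusted p-value.

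Levels were compared between genes per kilobase of transcript, since a longer transcript gives more counts. In control at 3 h *Msmo1* was highest with 31.9 ± 1.71 CPM per kb (SD, n = 3), followed by *Sqle* (11.9 ± 0.36), *Cyp51* (10.6 ± 0.37), *Ebp* (10.5 ± 0.88), *Sc5d* (6.58 ± 0.54) and *Nsdhl* (4.74 ± 0.20). *Tm7sf2* (3.03 ± 0.67), *Dhcr7* (2.22 ± 0.33), *Hsd17b7* (1.64 ± 0.07) and *Lss* (1.49 ± 0.11) were lowest. Neighbours in this order whose libraries overlapped were *Cyp51* and *Ebp*, *Tm7sf2* and *Dhcr7*, and *Hsd17b7* and *Lss*. *Msmo1* stayed first and *Sqle* second in all 4 groups, although *Sqle* overlapped *Cyp51* in AclyM-KO at 3 h and *Ebp* in AclyM-KO at 24 h. *Lss* moved from rank 10 in control at 3 h to rank 7 in control at 24 h, with 5.52 ± 0.18 CPM per kb, where it overlapped *Dhcr7*. *Tm7sf2* moved the other way, from rank 7 to rank 10, with 1.51 ± 0.11 CPM per kb. *Ebp* had rank 3 in AclyM-KO at 24 h with 7.95 ± 0.47 CPM per kb, above *Cyp51* at 6.49 ± 0.49, whose libraries did not overlap with it.

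**Figure D4:**
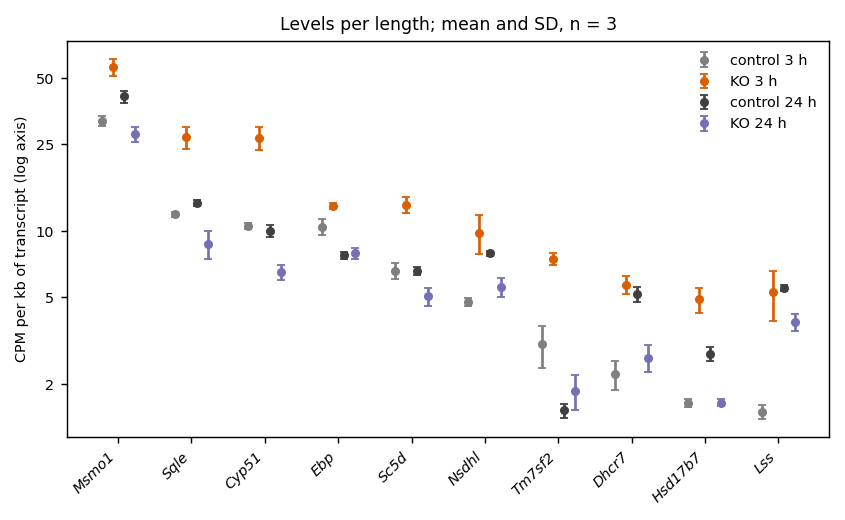
Level of each enzyme in CPM per kilobase of transcript on a log axis, as mean and SD of 3 libraries, for control and AclyM-KO (KO) macrophages at 3 h and 24 h LPS, in the order of the control 3 h means. *Msmo1* is highest in every group (31.9 CPM per kb in control at 3 h), and *Lss* is lowest in control at 3 h (1.49) but not in the other groups.

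The members were also compared from library to library within a group. Of the 3 AclyM-KO libraries at 3 h, replicate 1 was the lowest for 10 of 10 members, with a median of 89.8% of the group mean and a range of 74.4% to 97.0%. Replicate 2 was the highest for 7 of 10, with a median of 111%. *Acly* had the same order, with 37.7 CPM in replicate 1, 41.5 in replicate 3 and 46.2 in replicate 2, and so had the total counts, 21717016, 22532957 and 24638561. The part of residual *Acly* or of depth in this spread was not tested. In AclyM-KO at 24 h replicate 1 was the lowest for 7 and replicate 2 the highest for 7. The median ratio of the highest to the lowest library was 1.12 in control at 3 h, 1.22 in AclyM-KO at 3 h, 1.10 in control at 24 h and 1.20 in AclyM-KO at 24 h. No test was made of whether these ratios differ between genotypes. The largest was *Lss* in AclyM-KO at 3 h, with 1.69, and the next *Tm7sf2* in control at 3 h, with 1.57.

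**Figure D5:**
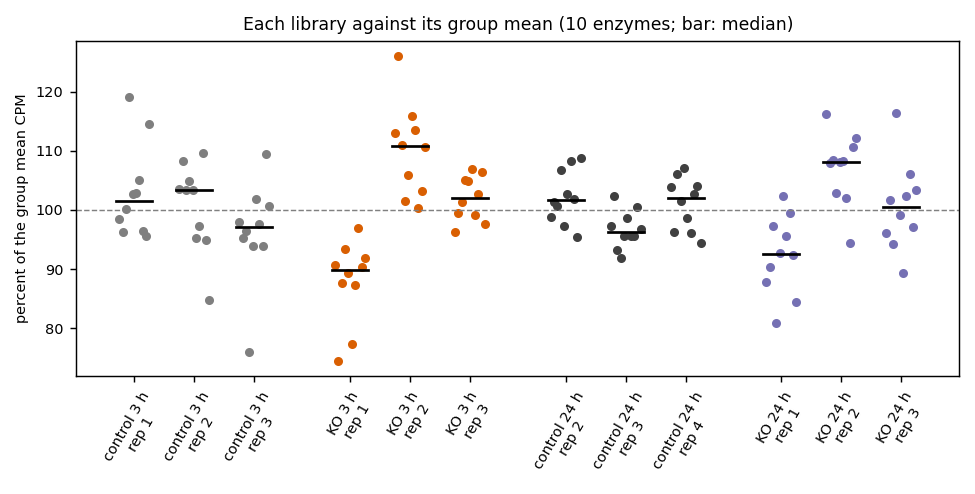
Each library's CPM as a percentage of its group mean for the 10 enzymes, with 1 point per enzyme and a bar at the median, for control and AclyM-KO (KO) libraries at 3 h and 24 h LPS. In KO 3 h replicate 1 all 10 points lie below 100% (median 89.8%), and in KO 3 h replicate 2 all lie above it (median 111%).

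As a description, each member's log2 CPM over the 12 libraries was correlated with the mean of the other 9. The libraries share genotype, time and depth, so these values carry no p. Pearson's r was 0.98 for *Hsd17b7*, 0.97 for *Sqle* and *Msmo1*, 0.94 for *Sc5d* and *Cyp51*, 0.85 for *Nsdhl*, 0.79 for *Dhcr7*, 0.72 for *Tm7sf2*, 0.63 for *Ebp* and 0.47 for *Lss*. The genes outside the 10 whose level followed the mean of the members most closely were *Scd1* (r = 0.993), *Fdps* (0.989), *Fasn* (0.976), *Trp53inp2* (0.969), *Aacs* (0.941), *Cyb5b* (0.939), *Pira2* (0.934) and *Hsd17b12* (0.930). *Scd1* encodes a fatty acid desaturase and *Fasn* the fatty acid synthase. *Scd1* had means of 11.8, 56.0, 17.4 and 9.87 CPM in control 3 h, AclyM-KO 3 h, control 24 h and AclyM-KO 24 h, and *Fasn* 30.3, 92.0, 40.7 and 19.8 CPM. *Pira2* belongs to a family of near-identical genes, so its counts are uncertain.

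A list of 9 enzymes that act before squalene epoxidase is given for the context of the pathway. They lie between acetyl-CoA and squalene, except *Ggps1*, which lies on a side branch and is included in the counts and medians. At 3 h 6 of 9 were called higher in AclyM-KO macrophages, where 1.41% of tested genes were. They were *Acat2* (log2 1.72), *Idi1* (1.70), *Mvd* (1.68), *Fdps* (1.63), *Pmvk* (1.17) and *Mvk* (1.10), and the list median was 1.17. *Hmgcs1*, the synthase at the head of the mevalonate pathway, was at 0.65, past the adjusted p-value alone. *Fdft1*, the squalene synthase that makes the substrate of *Sqle*, did not pass at 3 h (0.00 on the log2 scale, edgeR, adjusted p = 0.981), nor did *Ggps1* (-0.28, edgeR, adjusted p = 0.0844), which draws isoprenoids into another branch. At 24 h *Mvk* (-0.99), *Fdps* (-0.92) and *Hmgcs1* (-0.81) were called lower, where 0.479% of tested genes were, and the list median was -0.73. The difference of the genotype effect between the times was lower at 24 h for 7 of 9, where 4.66% of tested genes were. From 3 h to 24 h, 4 of the 9 were called higher and 1 lower in control, where 20.9% and 19.5% of tested genes were. In AclyM-KO 2 were called higher and 7 lower, where 21.9% and 20% of tested genes were. *Mvd* was higher at 24 h in both genotypes (log2 2.72 in control and 0.75 in AclyM-KO) and *Ggps1* was called higher in AclyM-KO (0.99). *Fdft1* fell in both genotypes, by 1.97 in control and 2.05 in AclyM-KO on the log2 scale, where *Sqle* was at 0.18 in control and -1.62 in AclyM-KO.

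Of 2 further genes that act after squalene, neither was called between genotypes. *Lbr*, which encodes a sterol reductase of the same step as *Tm7sf2*, was at 0.52 at 3 h (edgeR, adjusted p = 7.29e-04) and *Erg28*, a scaffold of the demethylation unit, at 0.28. The interaction was lower for both, with -0.85 for *Lbr* and -0.64 for *Erg28*. Of 9 genes that serve these enzymes, as electron carriers (*Por*, *Cyb5a*, *Cyb5b* and the reductases *Cyb5r1* and *Cyb5r3*) or in other accessory roles, 8 were tested, and 0 were called between genotypes at 3 h or 24 h with edgeR. By the adjusted p-value alone *Cyb5b* (0.43), *Cyb5r1* (0.29) and *Cyb5r3* (0.20) were higher at 3 h and *Cyb5b* was lower at 24 h (-0.22). The interaction was higher for *Por* (0.27, edgeR, adjusted p = 0.0205) and *Pgrmc1* (0.31, edgeR, adjusted p = 0.0302), where 4.86% of tested genes were higher, and lower for *Cyb5b* (-0.64, edgeR, adjusted p = 4.17e-06). The median of these 8 was -0.02 at 3 h and 0.03 at 24 h. With time, *Por* (log2 0.89 in control and 1.17 in AclyM-KO) and *Cyb5a* (0.86 and 0.94) were called higher in both genotypes. Of all tested genes, 20.9% were called higher with time in control and 21.9% in AclyM-KO. *Cyp51*, whose enzyme takes its electrons from POR, was at -0.07 and -2.04.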

How the data were processed

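RNA-seq was analysed in 13 BMDM libraries grouped by the genotype, LPS time and replicate number in their labels. The authors made mRNA libraries with a strand-specific kit, aligned reads to mm10 with STAR 2.5.2b (CASAVA 1.8.2 is also named in the submitters' processing notes), filtered alignments with SAMtools and summed tags per RefSeq transcript with HOMER. The deposited table holds raw counts of 35745 transcripts, without normalization, and 0 of its value columns were left unused. Strand and isoform settings of the counting are not given in the sources used here.

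Symbols were matched for 35628 transcripts through RefSeq and GENCODE tables of GRCm38, and the transcript with the highest total count stood for its gene. Counts were fitted by edgeR 4.0.16 in R 4.3.3, on limma 3.58.1, with TMM scaling, filterByExpr, robust quasi-likelihood fit of 4 groups over 12 libraries, without control 24 h replicate 1 for its depth. The Benjamini-Hochberg adjustment ran over 19621 transcripts, and all calls counted once per gene over 11904 genes. A call needed an adjusted p under 0.05 and a log2 fold change beyond 0.75, the interaction the adjusted p alone. Dividing a log2 fold change by the root of its F statistic gave the standard error. The depth of the other 12 libraries put 1 count at 0.0523 CPM or less, and the lowest member, *Tm7sf2*, at 48 to 255 counts per library. Replicates differed by more than sampling noise in every group. Levels per length used the length of the matched GENCODE transcript. Promoter motifs were searched by exact match. Scripts were tested on simulated data.

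Named genes were all members, *Acly*, listed pathway genes past the threshold, and the 8 genes most correlated with the members' mean log2 CPM. *Ggps1*, *Fdft1* outside its called comparisons, *Lbr*, *Erg28*, *Lyz2*, the overlapping genes and the other accessory genes were named beside these after their values were seen. The members and lists were chosen with earlier results of these data known. Some genes of these lists are not reported here, and counts and medians leave them out. Alternatives were DESeq2 1.42.0, RLE scaling, no filter, all 13 libraries, 1 transcript per gene, only the groups compared, fold thresholds, a replicate block and each library left out.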

Additional observations from a re-analysis of the deposited data

Results flagged for a closer look

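In 9 of the 10 enzymes the effect of the genotype differed between 24 h and 3 h LPS by the interaction term of edgeR. All 9 were lower at 24 h, where 4.66% of tested genes were lower and 4.86% higher. The log2 values were -1.79 for *Sqle*, -2.34 for *Lss*, -1.97 for *Cyp51*, -1.01 for *Tm7sf2*, -1.40 for *Msmo1*, -1.57 for *Nsdhl*, -2.31 for *Hsd17b7*, -1.41 for *Sc5d* and -2.33 for *Dhcr7*. The same held for *Acly* itself (-0.54) and, elsewhere in the pathway, for *Acat2* (-2.45), *Hmgcs1* (-1.46), *Mvk* (-2.09), *Pmvk* (-1.68), *Mvd* (-1.97), *Idi1* (-2.68) and *Fdps* (-2.56). It held with smaller values for *Lbr* (-0.85), *Erg28* (-0.64) and *Cyb5b* (-0.64), while *Por* (0.27) and *Pgrmc1* (0.31) passed in the other direction. *Ggps1* and *Fdft1* did not pass. *Acly* was lower in AclyM-KO than in control at both times, and its interaction says that the gap was wider at 24 h.

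With all 4 control 24 h libraries, replicate 1 stood far from the others for 7 members, by a test of gaps that chance fails in about 1 of 20 groups. That rate assumes libraries of like spread and does not apply here. At 22.4 CPM per count this library can read only 0 or steps of that size, so the test cannot tell its level from its depth. It had 0 CPM for *Lss*, *Tm7sf2*, *Nsdhl*, *Hsd17b7* and *Dhcr7*, 22.4 CPM for *Ebp* and 89.6 CPM for *Sc5d*, and also 22.4 CPM for *Acly*. These stand for 0 counts, 1 count, 4 counts and 1 count among 34467. A count of 0 in this library allows up to 3 counts.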

How the results depend on the processing

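Of 940 member values under alternatives that kept the thresholds, 917 kept direction and call, 14 became called, 1 lost its call and 8 changed sign. Some of the 940 come from fits without a library of a group outside the comparison. Such fits could change a value only through the shared filter, scaling and spread, so the count of 917 says little for them. It also says little for the fit with all 13 libraries, since the added library has little weight. The limits lie at the fold threshold of 0.75. Of the members called between genotypes at 24 h (1), leaving out a library gave 1 to 2, no filter 2, a threshold of 1 gave 0 and no fold threshold 8. The second was *Hsd17b7*, without AclyM-KO 24 h replicate 2 or 3 or control 24 h replicate 3 or 4. Of the members called with time in control (3), leaving out a library gave 3 to 5, no filter 5 and no fold threshold 7, and 5 came without control 24 h replicate 4 or control 3 h replicate 1. Of the other pathway genes called, 6 at 3 h became 11 without a fold threshold. At 24 h 3 became 3 to 4 without a library, 0 at a threshold of 1 and 8 without one. With time, 7 in control became 3 at a threshold of 1 and 16 without one, and 12 in AclyM-KO became 7 at a threshold of 1. Over all genes, 239 at 3 h and 164 at 24 h became 144 and 70 at a threshold of 1 and 1835 and 1653 without one.

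Values that changed sign were near 0. *Ebp* between genotypes at 24 h (0.03) was -0.0164 without AclyM-KO 24 h replicate 3 and ranged up to 0.0689 with another library left out. *Sc5d* with time in control (0.01) was -0.0263 without control 24 h replicate 4, -0.0129 without control 3 h replicate 1 and -0.0195 without control 3 h replicate 2, against up to 0.0862 without another library. It was -0.0797 with the replicate block, -0.0188 with DESeq2, -0.0180 with RLE scaling and -0.00066 with 1 transcript per gene. The cause was not tested.

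The labels number replicates within groups, and deviations of same-numbered libraries had small correlations, from -0.03 to 0.058. Within AclyM-KO the same-numbered pairs of 3 h and 24 h were at 0.058, 0.038 and 0.040. The differently numbered AclyM-KO pairs lay from -0.033 to -0.005. Within control the same-numbered pairs were at -0.005 and 0.018, and the others lay from -0.064 to 0.074. Whether the libraries were paired was not tested. A replicate block was built on the label numbers, so that control 24 h replicate 4 has no partner in it. The block joins libraries of the same number across both genotypes, which cannot come from the same mouse. With this block 9 members were called at 3 h, 1 at 24 h, 9 in the interaction, 3 with time in control and 8 with time in AclyM-KO. These are the same counts as without the block, but they do not check a pairing of 3 h and 24 h libraries within a genotype. The numbers in the deposited column names run in another order. They could instead match control 24 h replicate 4 with control 3 h replicate 1, whose correlation was 0.074, and no block was fitted on them. Depth limits *Tm7sf2* most among the 12 libraries, and control 24 h replicate 1 cannot resolve any of the 10. Promoter windows shortened to 200 bases held CCAAT and GGGCGG in 9 of 9 members, and the highest level per length in control at 3 h was 21.4 times the lowest with and without TMM scaling. TMM scales all genes of a library alike, so this ratio could hardly change.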
